A study of Mus musculus with 22 samples.

Results

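The results concern 9 genes of the rod phototransduction cascade, the chain of proteins by which rod photoreceptors turn light into an electrical signal. They are Gnat1, Gnb1 and Gngt1, Pde6a, Pde6b and Pde6g, Cnga1 and Cngb1, and Sag. The genes were taken by symbol from the 2 deposited count tables, where each symbol matched 1 of 54532 rows. All 9 passed the filter on low counts, which left 18657 genes for the wild-type fit and 18923 for the Rag2 fit.

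In the dark, cyclic GMP holds open a cation channel in the membrane of the rod outer segment. Light switches on the G protein transducin, which relieves the inhibition of a phosphodiesterase, and that enzyme breaks down cyclic GMP so that the channel closes. Arrestin then helps to end the signal. Gnb1 is a G protein subunit of many cell types, whereas the other 8 genes are best known from photoreceptors.

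The study sequenced bulk RNA from the retina and choroid together after laser burns that bring on choroidal neovascularisation (CNV), in which new vessels grow from the choroid towards the retina. Its labels follow CNV over time and set strains with and without natural killer cells side by side. Wild-type C57BL/6J mice gave 4 control libraries without CNV, and 4 more at each of 3 times after laser, day 3, day 7 and day 14. A separate table holds 3 libraries from Rag2-/-γc-/- mice and 3 from Rag2-/- mice, all lasered and all at day 3. Both strains lack Rag2, without which T and B cells do not form, and the first also lacks the common gamma chain that natural killer cells need. No Rag2-deficient library without laser was analysed here, so a difference between the strains is one between lasered eyes. The mice are given only as adult. For control replicate 4 the title gives no CNV but the treatment tag gives the laser; it was kept as a control, and leaving it out was tried in each comparison. How many animals gave each library is not stated, so p-values measure only the spread between these libraries, which may be technical.

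The wild-type libraries held 15033983 to 16848254 counts and the Rag2 libraries 27227847 to 30315086. Il2rg, the gene of the common gamma chain, had 0 counts in each Rag2-/-γc-/- library, against 28 to 62 in the Rag2-/- libraries, and Rag2 had 1 count over all 6. In wild-type control, the rod markers Nrl and Nr2e3 averaged 2026 ± 103 and 572 ± 37.4 CPM (counts scaled for library size; SD, n = 4). The pigment epithelium marker Rpe65 averaged 222 ± 48.2 CPM there, and Best1, another, 0.634 ± 0.321 CPM. Lens RNA varied between the wild-type libraries: 21 lens genes took 0.0207 to 1.43% of control counts, and by time 3.10 to 5.78% (day 3), 0.00103 to 4.23% (day 7) and 0.0762 to 13.3% (day 14). Genes of the cornea and conjunctiva, 12 in all, took 0.270 to 0.841% of control counts, and by time 0.495 to 3.28% (day 3), 0.585 to 2.83% (day 7) and 0.618 to 1.77% (day 14). Day 14 replicate 1 had the 13.3% lens share, and its CPM was the lowest of the 16 wild-type libraries for all 9 genes. Day 3 replicate 3 had the 3.28% cornea and conjunctiva share, and its CPM was the lowest of the 4 day 3 libraries for all 9 genes. Annotated genes that overlap a member held counts equal to 0.0105% of those of Gnb1, 0.582% of those of Pde6a and 0.171% of those of Cnga1.

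**Figure D1:**
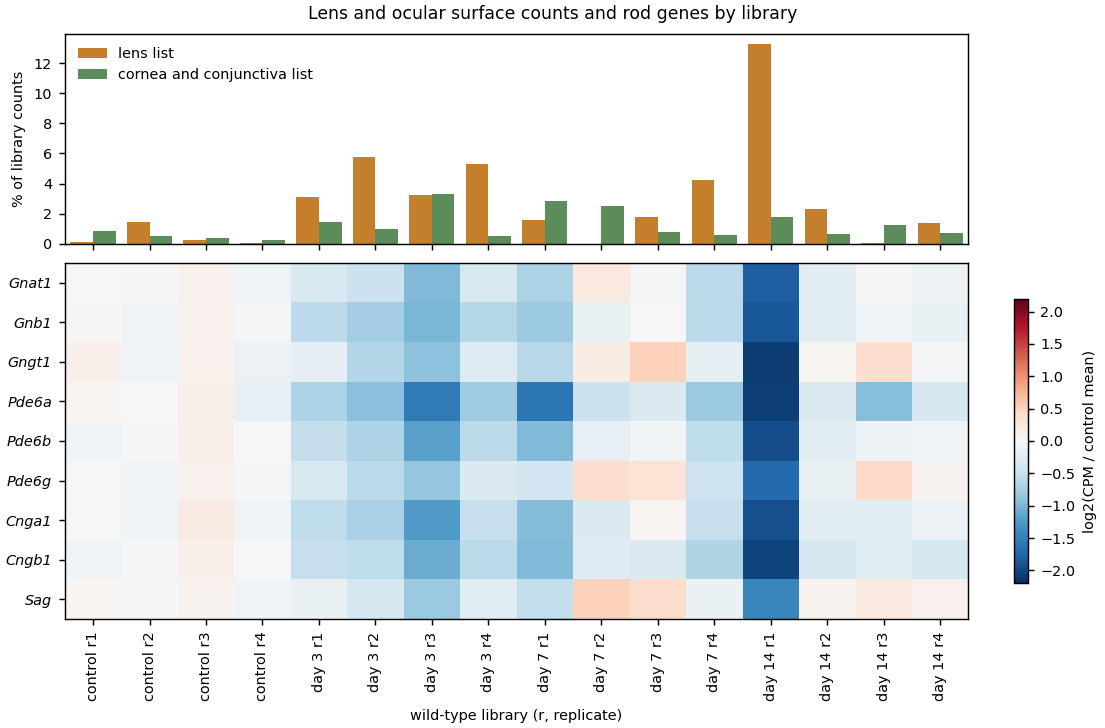
Top, share of each wild-type library's counts in 21 lens genes and 12 cornea and conjunctiva genes (%). Bottom, log2 of each gene's CPM over the mean of the 4 control libraries, by library. Day 14 replicate 1, with 13.3% lens counts, has the lowest value for every gene, and day 3 replicate 3 the lowest of day 3.

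Crx and Nrl are the transcription factors best known for switching rod genes on, and the start sites were searched for the letters those factors bind. RefSeq promoter windows (build GRCm38.p6, 250 bases before to 50 after the start) were matched by symbol for 6 of the 9 genes: Gnb1, Gngt1, Pde6b, Cnga1, Cngb1 and Sag. Gnat1, Pde6a and Pde6g were not matched. The letters TAATCC, as Crx binds, and TGCTGA, as Nrl binds, were searched on both strands, and the matches found did not overlap each other. The 250 bases before the start are shown for 4 genes that differ in these letters, 5′ to 3′ on the gene's strand, with the matches in capitals. They lie at chr1:87803430-87803679 (plus strand) for Sag, chr8:95306586-95306835 (minus) for Cngb1, chr5:108388123-108388372 (plus) for Pde6b and chr4:155491111-155491360 (plus) for Gnb1.
Sag: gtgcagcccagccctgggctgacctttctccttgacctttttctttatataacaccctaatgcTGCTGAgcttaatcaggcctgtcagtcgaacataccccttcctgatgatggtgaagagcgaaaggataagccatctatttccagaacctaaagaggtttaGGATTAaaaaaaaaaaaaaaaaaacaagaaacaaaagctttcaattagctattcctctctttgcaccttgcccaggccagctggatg
Cngb1: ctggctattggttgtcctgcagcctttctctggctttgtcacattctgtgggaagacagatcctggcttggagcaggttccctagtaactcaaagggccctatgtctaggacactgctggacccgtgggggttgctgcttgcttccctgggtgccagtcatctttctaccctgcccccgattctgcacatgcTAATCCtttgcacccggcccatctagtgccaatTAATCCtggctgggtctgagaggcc
Pde6b: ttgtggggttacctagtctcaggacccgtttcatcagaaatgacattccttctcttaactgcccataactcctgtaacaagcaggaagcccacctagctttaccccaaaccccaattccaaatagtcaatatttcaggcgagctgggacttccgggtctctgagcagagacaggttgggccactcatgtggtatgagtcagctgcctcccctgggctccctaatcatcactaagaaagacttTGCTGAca
Gnb1: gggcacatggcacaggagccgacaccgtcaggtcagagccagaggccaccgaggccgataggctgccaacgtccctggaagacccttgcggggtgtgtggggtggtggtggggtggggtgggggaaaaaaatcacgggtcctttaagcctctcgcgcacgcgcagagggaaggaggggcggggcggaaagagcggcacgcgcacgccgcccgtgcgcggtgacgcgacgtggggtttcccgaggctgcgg
TAATCC or its reverse complement GGATTA was in 4 of the 6 windows, against 7.06% of 32851 windows of all genes. It starts at -87 in Sag, at -58 and -25 in Cngb1, at -44 in Gngt1 and at -228 in Cnga1, counted from the RefSeq start. The RefSeq start is not the start of the deposited gene model in every case. For Pde6b the 250 bases shown end at 108388372, while the deposited model starts at 108388391. TGCTGA was in 2 of the 6, against 19.5% of all windows, at -187 in Sag and at -8 in Pde6b. Sag held both kinds, as did 1.36% of all windows, and the Gnb1 window held neither. A match of letters is a description and shows no binding.

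Per length of the gene, Gnat1 was the most abundant of the 9 in control, at 3513 ± 234 FPKM (fragments per kilobase of gene, scaled for depth; SD, n = 4). Gnb1 followed at 893 ± 51.0 FPKM and Pde6g at 734 ± 41.4 FPKM. Sag, Pde6a and Pde6b lay close together, at 497 ± 28.4, 489 ± 48.3 and 468 ± 29.2 FPKM, and did not differ beyond their spread. Gngt1 came next at 217 ± 19.7 FPKM. The channel genes were lowest, at 124 ± 12.4 FPKM for Cnga1 and 107 ± 6.70 FPKM for Cngb1. Pde6g stood above Gnb1 at days 7 and 14, within their spread. Pde6b stood above Pde6a in every group but control: at day 3 Sag was at 387 ± 70.9 FPKM, Pde6b at 288 ± 54.4 and Pde6a at 256 ± 59.9. In Rag2-/-γc-/- mice Sag stood second, at 836 ± 83.2 FPKM (SD, n = 3), below Gnat1 alone, against 612 ± 31.1 FPKM in Rag2-/- mice, below Gnat1, Pde6g and Gnb1.

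At day 3 after the laser, every one of the 9 genes was lower in all 4 libraries than in all 4 controls. Together they took 1.31 to 2.16% of all counts at day 3, against 2.71 to 2.99% in control. No gene passed the test: edgeR's quasi-likelihood fit over the 16 wild-type libraries called 0 of 9 at an adjusted p under 0.05, and 5 (Gnb1, Pde6a, Pde6b, Cnga1 and Cngb1) had an unadjusted p under 0.05, as did 37.4% of all tested genes. Limma voom called 0 of 9, beside 13.2% of all genes, and DESeq2 called 1, Pde6a, beside 25.8% of all genes. Over all tested genes edgeR called 14.7% in either direction, and 1.54 to 12.7% with 1 library left out, lowest without control replicate 3; 0 of 9 were called each time. CPM values were lower at day 3 with no overlap for 22.8% of all tested genes. The median log2 fold change of the 9 genes was -0.66, beside 0.01 over all genes tested. In this bulk tissue, fewer rods and less of these RNAs per rod cannot be told apart.

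Transducin is built from an alpha subunit (Gnat1), a beta subunit (Gnb1) and a gamma subunit (Gngt1). Gnat1 (ENSMUSG00000034837, chr9:107674474-107679712, mm10) had 10775, 10590.5, 11518 and 10066 CPM in control, 8509, 7697, 5489.6 and 8413 CPM at day 3, 6657, 12479, 10376 and 7246 CPM at day 7, and 3059, 9126, 10883 and 9994 CPM at day 14. The day 3 libraries lay below the controls, while 1 day 7 library lay above them and 1 day 14 library within their range. Its day 3 level was 0.701 of control (95% confidence interval 0.432 to 1.14, edgeR adjusted p = 0.255).

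Gnb1 (ENSMUSG00000029064, chr4:155491361-155559269) had 3891, 3661, 4094 and 3732 CPM in control, 2567, 2257, 1904 and 2489 CPM at day 3, 2177, 3494, 3874 and 2534 CPM at day 7, and 1060.4, 3221, 3598 and 3429 CPM at day 14. All 4 day 3 and all 4 day 14 libraries lay below the controls, and 1 day 7 library did not. Its log2 fold change at day 3 was -0.74 ± 0.30 (SE, edgeR adjusted p = 0.0957), or 0.599 of control (0.383 to 0.937). Gngt1 (ENSMUSG00000029663, chr6:3993792-3997436) averaged 768 ± 66.0 CPM in control and, by time, 549 ± 117 (day 3), 781 ± 252 (day 7) and 681 ± 351 CPM (day 14; SD, n = 4 each). Its widest spread was at day 14, where 1 library had 180.2 CPM and another 997 CPM.

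**Figure D2:**
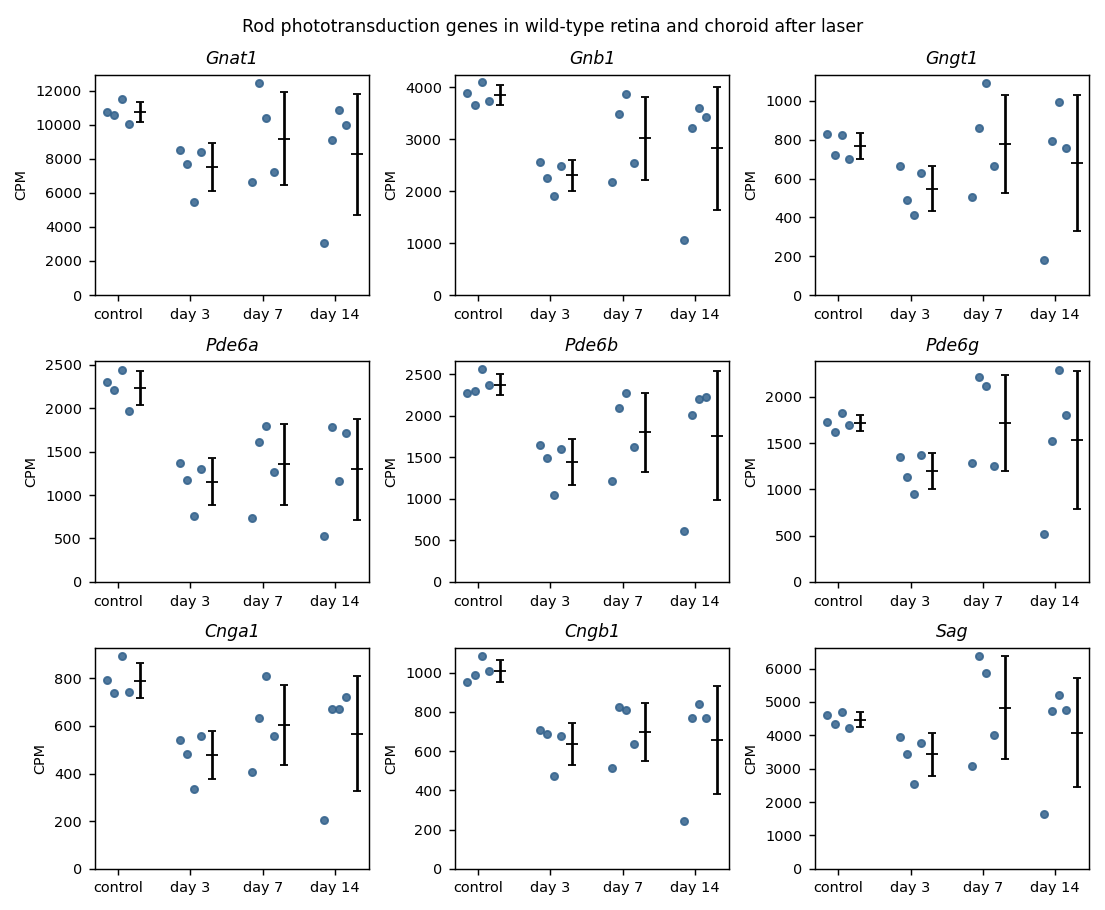
Level of each gene in the 16 wild-type libraries (CPM), 4 per group; the bar beside each group is the mean ± SD. All 9 genes are lower at day 3 than in every control library, and day 7 and day 14 libraries scatter more widely, with day 14 replicate 1 lowest.

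The phosphodiesterase has the catalytic subunits Pde6a and Pde6b and the inhibitory subunit Pde6g. Pde6a (ENSMUSG00000024575, chr18:61220482-61289924) had the largest difference of the 9 at each time. It had 2296, 2214, 2443 and 1968 CPM in control, 1374, 1178, 763 and 1297 CPM at day 3, 740.3, 1606, 1792 and 1267 CPM at day 7, and 529, 1781, 1164 and 1716 CPM at day 14. No library after the laser reached the lowest control. The log2 fold change was -0.95 ± 0.34 at day 3, -0.72 ± 0.34 at day 7 and -0.78 ± 0.34 at day 14 (SE; edgeR adjusted p = 0.0648, 0.153 and 0.175). That is 0.517 of control at day 3 (0.314 to 0.852), 0.606 at day 7 (0.368 to 0.997) and 0.582 at day 14 (0.354 to 0.957).

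Pde6b (ENSMUSG00000029491, chr5:108388391-108432397) averaged 2375 ± 128 CPM in control and, by time, 1443 ± 276 (day 3), 1801 ± 477 (day 7) and 1763 ± 772 CPM (day 14; SD, n = 4 each). It too stayed below every control library at each time, by a narrow margin: its highest day 7 library had 2271 CPM, against 2273 CPM in the lowest control. The inhibitory subunit Pde6g (ENSMUSG00000025386, chr11:120447605-120453500) had 1727, 1618, 1827 and 1692 CPM in control, 1347, 1131, 952 and 1371 CPM at day 3, 1283, 2213, 2123 and 1252 CPM at day 7, and 523, 1528, 2296 and 1804 CPM at day 14. Its day 7 mean equalled that of control, with 2 libraries above and 2 below every control, and the log2 difference was 0.00 ± 0.33 (SE; adjusted p = 0.999 by edgeR).

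Cnga1 and Cngb1 encode the subunits of the cyclic GMP-gated channel. Cnga1 (ENSMUSG00000067220, chr5:72603696-72644275) averaged 791 ± 72.1 CPM in control and, by time, 479 ± 101 (day 3), 602 ± 168 (day 7) and 566 ± 241 CPM (day 14; SD, n = 4 each). Cngb1 (ENSMUSG00000031789, chr8:95239045-95306585) averaged 1008 ± 54.7 CPM in control and, by time, 637 ± 109 (day 3), 697 ± 149 (day 7) and 655 ± 276 CPM (day 14; SD, n = 4 each). Every library after the laser had less Cngb1 than every control. Its log2 fold change was -0.66 ± 0.29, -0.53 ± 0.29 and -0.62 ± 0.29 at days 3, 7 and 14 (SE; edgeR adjusted p = 0.113, 0.215 and 0.201).

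Sag (ENSMUSG00000056055, chr1:87803680-87845158), which encodes rod arrestin, had 4614, 4339, 4689 and 4222 CPM in control, 3965, 3445, 2532 and 3779.8 CPM at day 3, 3084, 6368, 5858 and 4025 CPM at day 7, and 1637, 4716, 5196 and 4764 CPM at day 14. Its day 3 difference was the smallest of the 9, at -0.38 ± 0.31 on the log2 scale (SE; adjusted p = 0.377 by edgeR). At day 7, 2 libraries were above and 2 below every control, and at day 14, 3 were above and 1 was far below.

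At day 7, 3 of the 9 genes (Pde6a, Pde6b and Cngb1) were lower than control with no overlap, as were 18.4% of all tested genes. At day 14, 5 of the 9 (Gnb1, Pde6a, Pde6b, Cnga1 and Cngb1) were lower with no overlap, beside 12.8% of all tested genes. The edgeR fit called 0 of 9 at day 7, where it called 10.5% of all tested genes (0.675 to 15.4% with 1 library left out), and 0 of 9 at day 14, where it called 0.273%. At an unadjusted p under 0.05 stood 1 gene at day 7 (Pde6a), beside 32.1% of all tested genes, and 2 at day 14 (Pde6a and Cngb1), beside 24.8%. DESeq2 and limma voom also called 0 of 9 at both times. DESeq2 called 20.2% of all tested genes at day 7 and 9.87% at day 14, and limma voom 10.8% and 0.541%. The median log2 fold change of the 9 was -0.35 at day 7 and -0.43 at day 14, beside 0.03 and 0.04 over all genes tested. The day 14 values rested in part on replicate 1. Without it they were -0.085 for Gnat1, -0.15 for Gnb1, -0.51 for Pde6a, -0.13 for Pde6b, -0.19 for Cnga1 and -0.33 for Cngb1, and Gngt1, Pde6g and Sag were above 0, at 0.16, 0.15 and 0.15. The comparisons at days 3, 7 and 14 share the same 4 controls. Day 14 set against day 3 directly gave log2 fold changes of 0.04 to 0.36, with 0 of 9 called by edgeR, 0 of 9 at an unadjusted p under 0.05 (6.77% of all tested genes) and 0.00536% of all tested genes called. DESeq2 and limma voom called 0 of 9 there too, beside 0.618% and 0.0161% of all tested genes. Without day 14 replicate 1, edgeR still called 0 of 9, beside 6.82% of all tested genes called at an adjusted p under 0.05. In that fit 6 of the 9 had an unadjusted p under 0.05. The share of all tested genes at that unadjusted threshold is not given for this fit, so the 6 cannot be set against it.

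**Figure D3:**
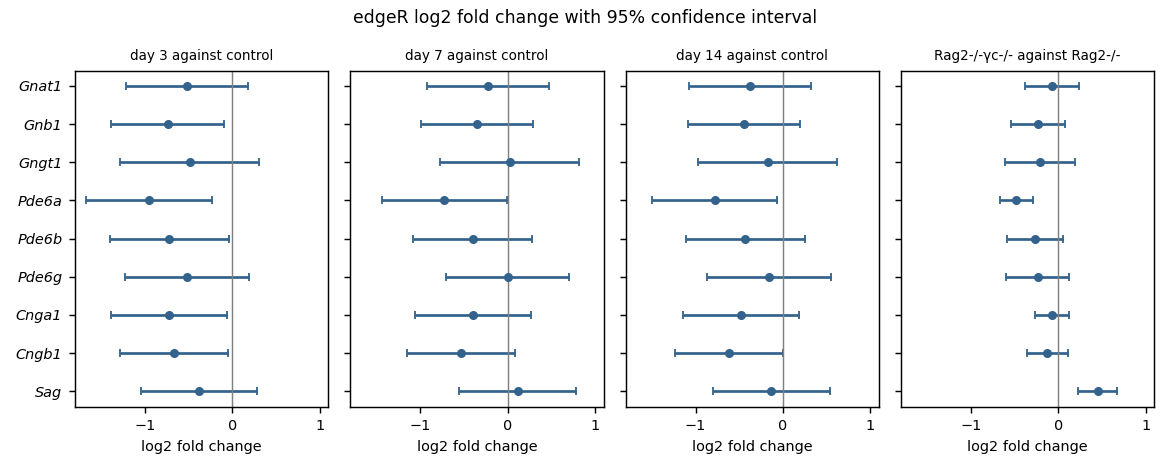
Log2 fold change of each gene from edgeR (points) with its 95% confidence interval (bars), for days 3, 7 and 14 against control (n = 4 each) and for Rag2-/-γc-/- against Rag2-/- (n = 3 each). At day 3 all 9 points lie below 0; in the Rag2 comparison Pde6a lies below 0 and Sag above 0 with narrow intervals.

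The calls differed with the libraries fitted. When only the 8 control and day 3 libraries were fitted, edgeR called 8 of the 9 genes lower at day 3, all but Sag, where 40.4% of the genes tested in that fit were called. With 1 library left out at each time (replicate 3 of day 3, replicate 2 of day 7, replicate 1 of day 14), edgeR called 5 (Gnb1, Pde6a, Pde6b, Cnga1 and Cngb1) at day 3, beside 22.2% of all genes tested. The day 3 and day 14 libraries left out were the lowest of their groups for all 9 genes. The day 7 library left out had the most Gnat1, Pde6g and Sag of its group. Leaving out libraries that are extreme in the genes tested is not a neutral alternative. At day 7 the fit of only control and day 7 called Cngb1, beside 25.3% of genes, and the fit without the 3 libraries called Cngb1 and Pde6a, beside 19.6%. In the authors' deposited table all 9 genes were lower at day 3 with an adjusted p under 0.05, from 2.58e-08 for Gnb1 to 0.0480 for Sag. Of the 30199 genes with an adjusted p at day 3 in the authors' deposited table, 26.4% passed that threshold in either direction. At day 7 the authors' deposited table had an adjusted p under 0.05 for Pde6a (0.0190) and Cngb1 (0.0117), beside 18.8% of the 30196 genes with an adjusted p, and at day 14 for 0 of the 9, beside 3.65% of 30435.

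Lens share moved with the day 3 difference: its lowest day 3 value (3.10%) was above its highest control value (1.43%), so time after laser and lens content cannot be told apart at day 3. With lens and cornea scores as covariates, edgeR called 0 of 9 at day 3, beside 3.7% of all tested genes. The day 3 log2 fold change was then between 0.09 (Gnb1) and 0.54 (Gngt1) for 8 genes and -0.09 for Pde6a. Without the lens, cornea and muscle genes in the table, no direction changed. That fit kept 18624 of the 18657 tested genes, so it does not take out other RNA of those tissues. Macrophage and microglia genes also moved at day 3: 10 of 11 rose (edgeR), and their summed share was 0.0309 to 0.0666% at day 3, against 0.0128 to 0.0175% in control. All 8 genes of reactive gliosis rose at day 3, with a share of 0.0769 to 0.127% at day 3, against 0.0187 to 0.0204% in control. Over all tested genes, edgeR called 6.97% higher at day 3. Genes of other retinal neurons were lower in part at day 3. EdgeR called lower 1 of 10 bipolar, 2 of 10 amacrine and horizontal and 3 of 10 ganglion cell genes. It also called lower 4 of 8 pigment epithelium genes, and 7.77% of all tested genes. Without overlap, 6 of 10 bipolar, 10 of 10 amacrine and horizontal and 8 of 10 ganglion cell genes were lower at day 3, beside 22.8% of all tested genes. The ganglion cell genes took 0.0297 to 0.0508% of counts at day 3, against 0.0634 to 0.0923% in control, and the amacrine and horizontal cell genes 0.0390 to 0.0608% at day 3, against 0.0822 to 0.0997% in control. Their part in the rod differences was not tested.

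Of 15 further rod pathway genes, all had a log2 fold change below 0 at day 3, and edgeR called 6 lower and 0 higher, beside 14.7% of all tested genes called, with a median log2 fold change of -0.65 over the 15. Rgs9 and Rgs9bp, which speed the shut-off of transducin as an enzyme and its membrane anchor, fell by 2.11 and 1.01 on the log2 scale (adjusted p = 0.0217 and 0.0469). The guanylate cyclases Gucy2e and Gucy2f, which restore cyclic GMP, fell by 0.85 and 1.63 (adjusted p = 0.0462 and 0.0430). Grk1, a photoreceptor kinase that takes part in shut-off, fell by 0.96 (adjusted p = 0.0458), and Slc24a1, the exchanger that clears calcium, fell by 1.004 (adjusted p = 0.0419).

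Of 13 genes of the outer segment and its upkeep, 3 fell at day 3 by edgeR, beside the 7.77% called lower over all tested genes. Among them were Abca4, a retinoid transporter, by 0.84 on the log2 scale, and Rp1l1, a photoreceptor axoneme gene, by 0.94 (adjusted p = 0.0450 and 0.0406). Of 7 photoreceptor transcription factors, Esrrb fell by 1.04 (adjusted p = 0.0349), while Nrl (-0.64) and Crx (-0.59) did not pass. Of 10 cone counterparts, Gnb3, a G protein beta subunit of cones and ON bipolar cells, rose by 0.95 (adjusted p = 0.0260) and the other 9 did not pass. The cone counterparts had a median log2 fold change of -0.47. Lower at day 3 without overlap were 15 of 15 rod pathway genes and 12 of 13 outer segment genes. So were 5 of 7 factors and 6 of 10 cone counterparts, beside 22.8% of all tested genes. At day 7 edgeR called 2 rod pathway genes, Rgs9 (-2.19) and Gucy2f (-1.66), 1 outer segment gene, Rp1l1 (-0.96), and 1 factor, Mef2d (-0.69), all lower. Over all tested genes it called 10.5% at day 7, in either direction. At day 14 it called 0 in these 4 lists, with 6 of 15, 5 of 13, 1 of 7 and 1 of 10 at an unadjusted p under 0.05, beside 24.8% of all tested genes.

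Because the 9 genes lie on 1 scale per library, ratios between them do not depend on depth. Pde6g counts per Pde6a count were 0.960 to 1.25 at day 3, against 0.731 to 0.860 in control, and the ranges did not overlap. At day 7 the same ratio was 0.988 to 1.73, again above control, and at day 14 it was 0.858 to 1.97. The log2 ratio was higher by 0.45 at day 3, 0.75 at day 7 and 0.58 at day 14 (two-sided exact permutation p = 0.0286, 0.0286 and 0.0571, where 0.0286 is the smallest p that 4 against 4 allows). Over the 20 ratio tests made, Benjamini-Hochberg adjustment gave 0.190 for each of these, so none passed. With 4 libraries a group, a ratio at the smallest p could pass only if most other ratios were there too. With 3 against 3 no ratio could pass. Not passing therefore does not show that the ratios were equal.

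Pde6b per Pde6a differed in the same direction by less, 1.20 to 1.37 at day 3, 1.27 to 1.64 at day 7 and 1.13 to 1.89 at day 14, against 0.990 to 1.20 in control. The log2 differences were 0.24, 0.36 and 0.33 (two-sided exact permutation p = 0.0571, 0.0286 and 0.0857, adjusted p = 0.190, 0.190 and 0.214). For the 2 channel subunits, the ratio of Cngb1 to Cnga1 counts was 1.34 ± 0.0976 at day 3, against 1.28 ± 0.0823 in control (SD, n = 4 each), a log2 difference of 0.07 (exact permutation p = 0.371). Gngt1 per Gnat1 differed by 0.03 on the log2 scale at day 3 (exact permutation p = 0.771). Gnb1 per Gnat1 was 0.293 to 0.347 at day 3, against 0.346 to 0.371 in control, a log2 difference of -0.21 (two-sided exact permutation p = 0.0571, adjusted p = 0.190). At days 7 and 14 the log2 difference was -0.12 and -0.14 for Cngb1 per Cnga1 (exact permutation p = 0.314 and 0.114). It was 0.24 and 0.11 for Gngt1 per Gnat1 (exact permutation p = 0.2 and 0.457). For Gnb1 per Gnat1 it was -0.12 and -0.06 (exact permutation p = 0.286 and 0.0857). None of these passed after adjustment.

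**Figure D4:**
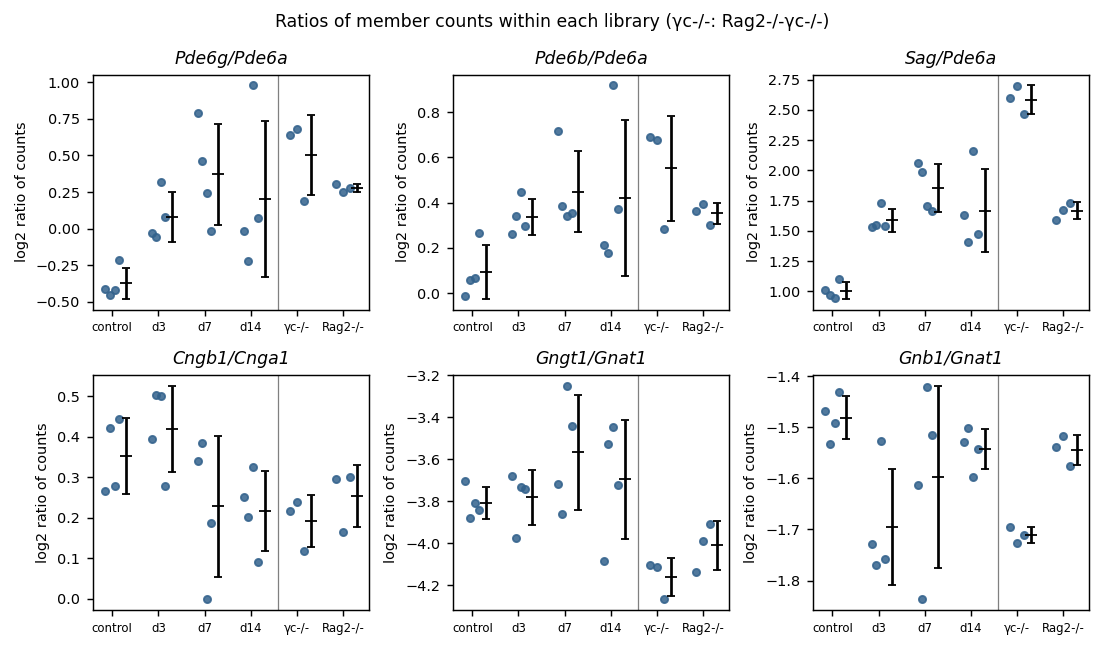
Log2 ratio of the counts of a pair of genes within each library: wild-type control and days 3, 7 and 14 (d3, d7, d14) left of the grey line, Rag2-/-γc-/- and Rag2-/- at day 3 right of it; bars are the mean ± SD. Pde6g per Pde6a is higher at days 3 and 7 than in every control, and Sag per Pde6a is higher in every Rag2-/-γc-/- library than in every Rag2-/- library.

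Set against the mean log2 CPM of 28 other rod genes (the 15 pathway and 13 outer segment genes), the 9 genes parted. Pde6a was lower relative to those genes by 0.25 on the log2 scale at day 3, 0.20 at day 7 and 0.20 at day 14. Sag was higher by 0.34, 0.65 and 0.46. In control libraries Sag lay 2.22 to 2.33 above the mean of the 28, at day 3 2.50 to 2.67, at day 7 2.73 to 3.27 and at day 14 2.61 to 2.93, so each library after the laser was above each control. Gnat1 was higher by 0.20, 0.33 and 0.20, Gngt1 by 0.23, 0.57 and 0.31 and Pde6g by 0.21, 0.55 and 0.38. Pde6b, Cnga1, Cngb1 and Gnb1 differed at day 3 by -0.01 to 0.06. At days 7 and 14 the differences were 0.16 and 0.13 (Pde6b), 0.17 and 0.09 (Cnga1), 0.04 and -0.04 (Cngb1) and 0.21 and 0.13 (Gnb1). These are descriptions without a test.

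Across the 16 wild-type libraries Pearson r between pairs was 0.761 to 0.991, with a median of 0.945 over 36 pairs, and 0.808 to 0.993 for deviations from group means. The libraries share their lens content and their rod content, so these values describe the libraries and carry no p. Across the 6 Rag2 libraries r was -0.794 (Pde6a and Sag) to 0.996, with a median of 0.847, and 0.227 to 0.995 for deviations from group means. Of 16648 ranked genes with at least 1 CPM, among the nearest to the mean of the 8 members other than Gnb1 were Nrl (r = 0.992), Guca1a (0.985), Rdh12 (0.984) and Ndrg3 (0.981). Uckl1, Prph2, Elovl4, Stx3 and Cdr2 followed, down to r = 0.976. Among the nearest to Gnb1 were Nrl (r = 0.990), Vopp1 (0.986), Guca1a (0.982), Ndrg3 (0.978) and Gnb5 (0.977), then Atp6v1b2, Sh3gl2, Fam3c and Crx, down to 0.973.

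Between the lasered Rag2-deficient strains, Pde6a was lower and Sag higher in all 3 Rag2-/-γc-/- libraries, and neither passed the test. Pde6a had 1306, 1218 and 1196 CPM in Rag2-/-γc-/- mice, against 1899.8, 1628 and 1655 CPM in Rag2-/- mice. Sag had 7892, 7910.1 and 6598 CPM in Rag2-/-γc-/- mice, against 5721, 5191 and 5490.0 CPM in Rag2-/- mice. These were the 2 of 9 genes without overlap between the strains, 1 lower and 1 higher, as were 10.6% and 11.5% of all tested genes. For Pde6a the log2 fold change was -0.48 ± 0.08 and for Sag 0.45 ± 0.10 (SE; edgeR adjusted p = 0.0586 and 0.106). EdgeR called 0 of 9, where 0.465% of all tested genes were called. Both stood at an unadjusted p under 0.05, as did 14.7% of all tested genes.

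The 2 values lie close to the threshold and their calls moved with the tool. DESeq2 called both, at an adjusted p of 7.88e-06 for Pde6a and 0.000208 for Sag, where it called 4.05% of all genes. Limma voom called Pde6a, as did edgeR with library totals, each beside 0.428% of genes (limma adjusted p = 0.0486). Without Rag2-/-γc-/- replicate 3 edgeR called Sag (adjusted p = 0.0393), beside 0.355% of genes, and without a filter on low counts it called both, beside 1.56%. The direction of both held in each alternative, from -0.52 to -0.40 for Pde6a and from 0.41 to 0.53 for Sag with 1 library left out. Relative to the 28 other rod genes, Pde6a was lower in Rag2-/-γc-/- mice by 0.34 on the log2 scale and Sag higher by 0.58. Sag counts per Pde6a count, a pair chosen after the values were seen, averaged 6.02 ± 0.490 in Rag2-/-γc-/- mice and 3.17 ± 0.154 in Rag2-/- mice (SD, n = 3 each). In wild-type libraries that pair stood at 2.01 ± 0.0984 in control and, by time, 3.01 ± 0.207 (day 3), 3.64 ± 0.495 (day 7) and 3.25 ± 0.833 (day 14; SD, n = 4 each). The 2 tables hold different strains and were not set against each other in a test.

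**Figure D5:**
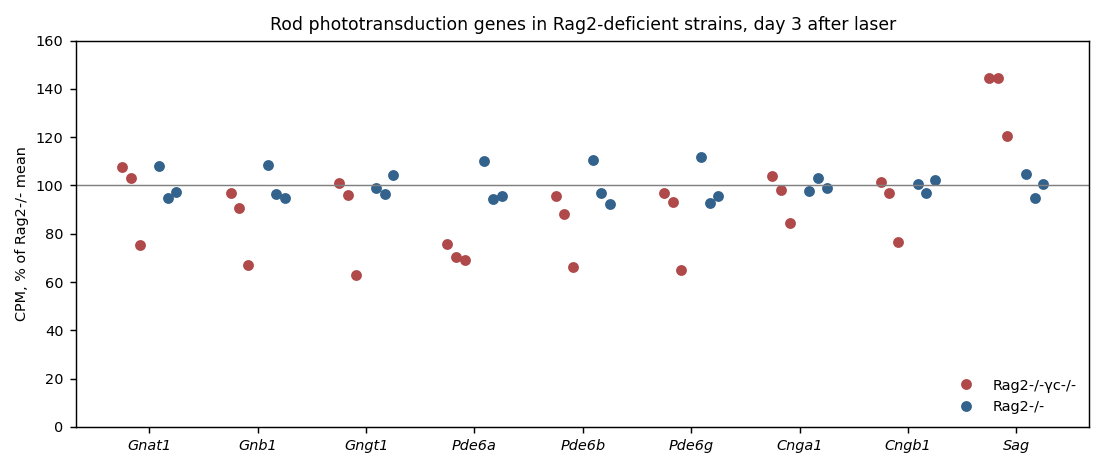
CPM of each gene in the 3 Rag2-/-γc-/- libraries and the 3 Rag2-/- libraries, as a percentage of the Rag2-/- mean (grey line at 100). The Rag2-/-γc-/- libraries lie below all Rag2-/- libraries for Pde6a and above them for Sag, and 1 Rag2-/-γc-/- library is low for most other genes.

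The other 7 genes did not separate the strains. Gnat1 averaged 9947 ± 1826 CPM in Rag2-/-γc-/- mice and 10438 ± 731 CPM in Rag2-/- mice (SD, n = 3 each), a log2 fold change of -0.07 (95% confidence interval -0.38 to 0.24). Gnb1 averaged 3040.0 ± 565 and Pde6b 1839 ± 339.9 CPM in Rag2-/-γc-/- mice, against 3580.4 ± 262 and 2207 ± 209 CPM in Rag2-/- mice. Rag2-/-γc-/- replicate 3 was the lowest of the 6 libraries for all of the 7, for example 408 CPM of Gngt1, against 622 to 676 in the other 5. Gnb1 per Gnat1 was 0.302 to 0.309 in Rag2-/-γc-/- mice, against 0.335 to 0.349 in Rag2-/- mice, a log2 difference of -0.17 (two-sided exact permutation p = 0.1, the smallest that 3 against 3 allows; adjusted p = 0.222). Lens genes took 0.0123 to 0.921% of counts in Rag2-/-γc-/- mice, against 0.253 to 0.924% in Rag2-/- mice, and the 12 cornea and conjunctiva genes under 0.001% in all 6. Macrophage and microglia genes took 0.0305 to 0.0483% in Rag2-/-γc-/- mice, against 0.0189 to 0.0252% in Rag2-/- mice. Reactive gliosis genes took 0.0790 to 0.311% in Rag2-/-γc-/- mice, against 0.0540 to 0.0855% in Rag2-/- mice. The part of these lists in the rod values was not tested.

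In the other rod lists, edgeR called 0 of 15 pathway genes, 0 of 13 outer segment genes, 0 of 7 factors and 0 of 10 cone counterparts between the strains, with 4, 1, 3 and 2 at an unadjusted p under 0.05, beside 14.7% of all tested genes. Grk1, with a log2 fold change of -0.25 ± 0.07 (SE, adjusted p = 0.181), and Gucy2f (-0.37 ± 0.10, adjusted p = 0.151) were among them. Near Gnb1, at the end of chromosome 4, 8 of 109 tested genes within 5 Mb were called between the strains (7.34%), 4 higher and 4 lower, while Gnb1 had an adjusted p of 0.454. Within 5 Mb of Pde6a 0 of 71 tested genes were called, and within 5 Mb of Sag 1 of 75.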

How the data were processed

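Retina and choroid RNA from 22 libraries was analysed from 2 deposited tables, 1 of 16 wild-type and 1 of 6 Rag2-deficient libraries, each with 54532 genes. Per the file headers, the authors deposited raw read counts, FPKM and gene length for each gene, and, in the wild-type table, against control, a log2 fold change with its raw and adjusted p-value. Counting used featureCounts 1.5.0-p3 and the genome build was mm10, per the submitters' processing notes; aligner, annotation and strandedness: not given in the sources used here. Columns were mapped to samples by their names and the titles, and 6 columns with the authors' group means were not used.

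Tests on the deposited counts used edgeR 4.0.16 under R 4.3.3: TMM scaling, filterByExpr (minimum count 10, minimum total 15), a robust quasi-likelihood fit of group means over all libraries of a table, and Benjamini-Hochberg adjustment over all tested genes, with calls at an adjusted p under 0.05. CPM values use TMM-scaled library sizes. Ratios of 2 genes were tested by two-sided exact permutation over libraries. Alternatives were DESeq2 1.42.0, limma 3.58.1 voom, other scalings, no filter, only the groups compared, a replicate block, lens and cornea scores as covariates, marker genes left out and libraries left out. On simulated counts made from these libraries, with 18415 genes, edgeR recovered 29 of 100 genes set to 0.5 of control at day 3 and 41 of 100 set to 2 times control. Those genes were picked at random whatever their level, and the counts of each gene were drawn independently. The 9 genes are abundant and move together between libraries, so these rates do not give the chance of calling them. Named genes are the 9 members, every called gene of the rod, outer segment, factor and cone lists, and the 10 genes most correlated with the 8 members or with Gnb1; some of these are not reported here. The members and lists were chosen with earlier results of these data known. With at least 15033983 counts per wild-type library and each member above 180 CPM in every library, counting error is small beside the spread between libraries.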

Additional observations from a re-analysis of the deposited data

Results flagged for a closer look

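Dixon's criterion at its 95% critical value was applied to each gene and each ratio in each wild-type group of 4 libraries. Of these 56 sets of 4 values, 8 held a library far from the others. Chance flags about 1 in 20 independent sets. These sets come from the same libraries and are not independent, so the 8 cannot be set against that rate. Day 14 replicate 1 was far below the other day 14 libraries for Gnb1 (1060.4 CPM), Pde6b (612 CPM), Cnga1 (206 CPM), Cngb1 (245 CPM) and Sag (1637 CPM). That library had a lens share of 13.3%, the highest of the 16. Day 3 replicate 3 was far below the other day 3 libraries for Cngb1 (475 CPM) and far above them in the log2 ratio of Gnb1 to Gnat1 (-1.53). It had the highest cornea and conjunctiva share, 3.28%. Day 7 replicate 1 was far above the other day 7 libraries in the log2 ratio of Pde6b to Pde6a (0.72). The part of lens, cornea or conjunctiva RNA in these values was not tested.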

How the results depend on the processing

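The number of the 9 genes called was 0 in every comparison, and differed under these settings. At day 3 it was 1 with DESeq2, 8 with only the groups compared and 5 without 3 libraries together (day 3 replicate 3, day 7 replicate 2 and day 14 replicate 1). At day 7 it was 1 with only the groups compared and 2 without those 3 libraries. Between Rag2-/-γc-/- and Rag2-/- mice it was 1 with library totals, 2 without a filter, 2 with DESeq2, 1 with limma voom and, leaving out each library in turn, 0 to 1. Genes called over the whole table at day 3 numbered 2749, against 4799 with DESeq2, 1406 without a filter, 7171 with only the groups compared, 690 with covariates for lens and cornea scores and 4168 without the 3 libraries. Leaving out 1 library gave 292 (control replicate 3), 490 (control replicate 2), 639 (control replicate 4), 861 (control replicate 1), 465, 1012 and 1222 (day 3 replicates 3, 4 and 1) and 2409 (day 3 replicate 2). At day 7 they numbered 1962, against 751 without a filter, 3768 with DESeq2, 4485 with only the groups compared, 3686 without the 3 libraries and 128 (without control replicate 3) to 2923 with 1 library left out. At day 14 they numbered 51, against 1801 with DESeq2, 6 with library totals, 26 without a filter, 101 with limma voom, 1 with only the groups compared, 2 with the replicate block, 25 without the lens, cornea and muscle list genes, 104 with the covariates, 514 without the 3 libraries and 1 to 159 with 1 library left out. For day 14 against day 3 they numbered 1, against 115 with DESeq2, 108 with the covariates, 683 without the 3 libraries, 0 to 4 under the other settings and 0 to 1290 with 1 library left out, the most without day 14 replicate 1. Between the Rag2 strains they numbered 88, against 491 without a filter, 692 with DESeq2, 46 with the replicate block, 42 with the covariates and 25 to 116 with 1 library left out. The cause was not tested.

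The sign turned with covariates for lens and cornea scores. The log2 fold change at day 3 was then 0.40 (Gnat1), 0.088 (Gnb1), 0.54 (Gngt1), 0.22 (Pde6b), 0.44 (Pde6g), 0.14 (Cnga1), 0.20 (Cngb1) and 0.52 (Sag). At day 7 it was 0.27 (Gnat1), 0.14 (Gnb1), 0.19 (Pde6b), 0.20 (Cnga1) and 0.0022 (Cngb1), and at day 14 it was 0.10 (Gnat1), 0.33 (Gngt1), 0.081 (Pde6b), 0.32 (Pde6g), 0.0085 (Cnga1) and 0.36 (Sag). For day 14 against day 3 it was -0.30 (Gnat1), -0.093 (Gnb1), -0.21 (Gngt1), -0.19 (Pde6a), -0.14 (Pde6b), -0.12 (Pde6g), -0.13 (Cnga1), -0.35 (Cngb1) and -0.17 (Sag). The cause was not tested.

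Values near 0 turned sign elsewhere. Limma voom gave -0.033 (Gngt1) and -0.049 (Pde6g) at day 7, and -0.010 (Gnat1) and -0.10 (Cngb1) for day 14 against day 3. The replicate block gave -0.038 (Gngt1) and -0.035 (Pde6g) at day 7 and -0.048 (Cngb1) for day 14 against day 3, and called 0 of 9 genes in each comparison. Without the 3 libraries the values were -0.0067 (Gngt1), -0.13 (Pde6g) and -0.028 (Sag) at day 7 and 0.16 (Gngt1), 0.15 (Pde6g) and 0.15 (Sag) at day 14. Same-numbered libraries correlated over 0.1 in 12 of 24 wild-type pairs and 0 of 3 Rag2 pairs, so the numbers were not taken to pair them. A sample correlated best with its own number in 16 of 48 wild-type and 2 of 6 Rag2 cases.

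Leaving out 1 library at a time, control replicate 4 included, moved these log2 fold changes across 0: Gngt1 at day 7 (-0.18 to 0.18) and day 14 (-0.42 to 0.16), Pde6g at day 7 (-0.12 to 0.13) and day 14 (-0.42 to 0.15), and Sag at day 7 (-0.016 to 0.28) and day 14 (-0.27 to 0.15). So did Gnat1 (-0.027 to 0.41), Pde6a (-0.022 to 0.43) and Cngb1 (-0.10 to 0.32) for day 14 against day 3, Gnat1 (-0.17 to 0.075) and Cnga1 (-0.14 to 0.015) between the Rag2 strains, and the log2 ratio of Gngt1 to Gnat1 at day 3 (-0.0083 to 0.089). Of 432 other settings of the fold changes, 368 kept direction and side of the threshold and 23 newly passed it. With 3 or 4 libraries a group, the spread between libraries and not depth set the width of the intervals.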
